A study of Mus musculus with 10 samples.

Results

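Pyruvate made by glycolysis enters the tricarboxylic acid (TCA) cycle through a short series of proteins, and their transcripts were followed here in mouse biceps femoris, a hindlimb muscle. The set holds 32 genes chosen by name, from the mitochondrial pyruvate carrier through the pyruvate dehydrogenase complex, its kinases and phosphatases and pyruvate carboxylase to the enzymes of the cycle. All 32 were found among the 15883 genes of the deposited count table, and all 32 passed the filter on low counts. The mice were C57BL/6J males, 5 weeks old, kept on normal chow and fasted for 16 h. One group of 5 mice carried a Zfp407 transgene (TG), and the other 5 mice were wild type (WT). Zfp407 encodes a zinc finger protein, and the series' title ties it to glucose homeostasis. The promoter that drives the transgene is not given in the sources used here. Since the columns are named for the groups and not for single mice, libraries are numbered as the columns are, TG 1 to TG 5 and WT 1 to WT 5.

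In muscle, the pyruvate dehydrogenase complex turns pyruvate into acetyl-CoA and so commits carbohydrate carbon to oxidation. The kinases phosphorylate its E1 alpha subunit and switch it off, and the phosphatases remove the phosphate and switch it on. During fasting, the muscle raises the kinase PDK4, which spares glucose. Pyruvate carboxylase instead makes oxaloacetate from pyruvate, which refills the cycle.

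Total counts ran from 15162400 to 19047834 in TG libraries and from 13530367 to 17814900 in WT libraries. Levels are given as CPM, the counts of a gene relative to the TMM-adjusted size of its library. The 32 transcripts together took 0.786% to 0.831% of all counts in TG libraries and 0.702% to 0.819% in WT libraries. The rows Lars2, Gm15564 and Gm15662 together held 9.62% to 17.3% in TG libraries and 14.3% to 33.9% in WT libraries. WT 1 and WT 2, with 33.9% and 29.3% in these rows, had the lowest shares of the 32 transcripts, 0.713% and 0.702%. With these rows left out of the scaling, Pdha1 and Pcx kept their calls. Zfp407 stood at 317 to 616 CPM in TG libraries and 20.95 to 25.7 CPM in WT libraries. Of the TG libraries, TG 3 stood apart. Its deviation from the mean of the other TG libraries followed the GC content of the transcript, with a Spearman rho of 0.675 over 13308 genes and of 0.845 over the 32 transcripts. For each of the other TG libraries, the mean it was set against included TG 3, and that rho over all genes lay between -0.416 and -0.245. In WT libraries, each set against the other WT libraries, it lay between -0.108 and 0.0907. Where leaving out TG 3 moved a log2 fold change printed for one of the 32 by more than 1.5 times or turned its sign, both values are given. Markers of skeletal muscle (Acta1, Ckm, Des, Ttn and Mb) summed to 97094 to 122112 CPM in TG libraries and to 121394 to 166604 CPM in WT libraries. Most of the sum was Ttn, and 0 of 5 were called, with log2 fold changes of -0.35 for Ttn, -0.03 for Ckm, 0.03 for Acta1, 0.13 for Des and 0.39 for Mb. Of 19 hepatocyte markers, 17 rose, and their sum was 556 to 6413 CPM in TG libraries, highest in TG 5, and 188 to 364 CPM in WT libraries.

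Few of the 32 transcripts were called. Pdha1, the E1 alpha subunit of pyruvate dehydrogenase, fell, and Pcx, which encodes pyruvate carboxylase, rose. The other 30 did not pass an adjusted p of 0.05 in edgeR's quasi-likelihood test with Benjamini-Hochberg adjustment over 13338 genes. In simulated counts, that test recovered 18% of genes set to a fold of 1.5. That share refers to all 13338 genes tested and not to the 32. Among these 30, the 95% interval reached a fold of 1.5 in either direction for Dld, Pdk3, Pdp1, Pdp2, Idh2 and Sucla2. The intervals of the others stayed within that fold. Smaller changes remain possible, so these 30 are not shown to be unchanged. The share of the 32 that was called, 6.25%, was near that of all genes tested, 5.33%. Of all genes tested, 4.28% were called higher and 1.05% lower in TG libraries. The log2 fold change, TG over WT, was below 0 for 22 of the 32 and above 0 for 10, with a median of -0.10 and a range from -0.44 to 0.80, while the median over all genes tested was 0.003. An unadjusted p under 0.05 was found for 5 of the 32 and for 18.1% of all genes tested. The groups were free of overlap for 2 of the 32, Pdha1 and Sucla2, and for 8.04% of all genes tested. Since the samples are bulk muscle, fewer cells of a type and less RNA per cell cannot be told apart.

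**Figure D1:**
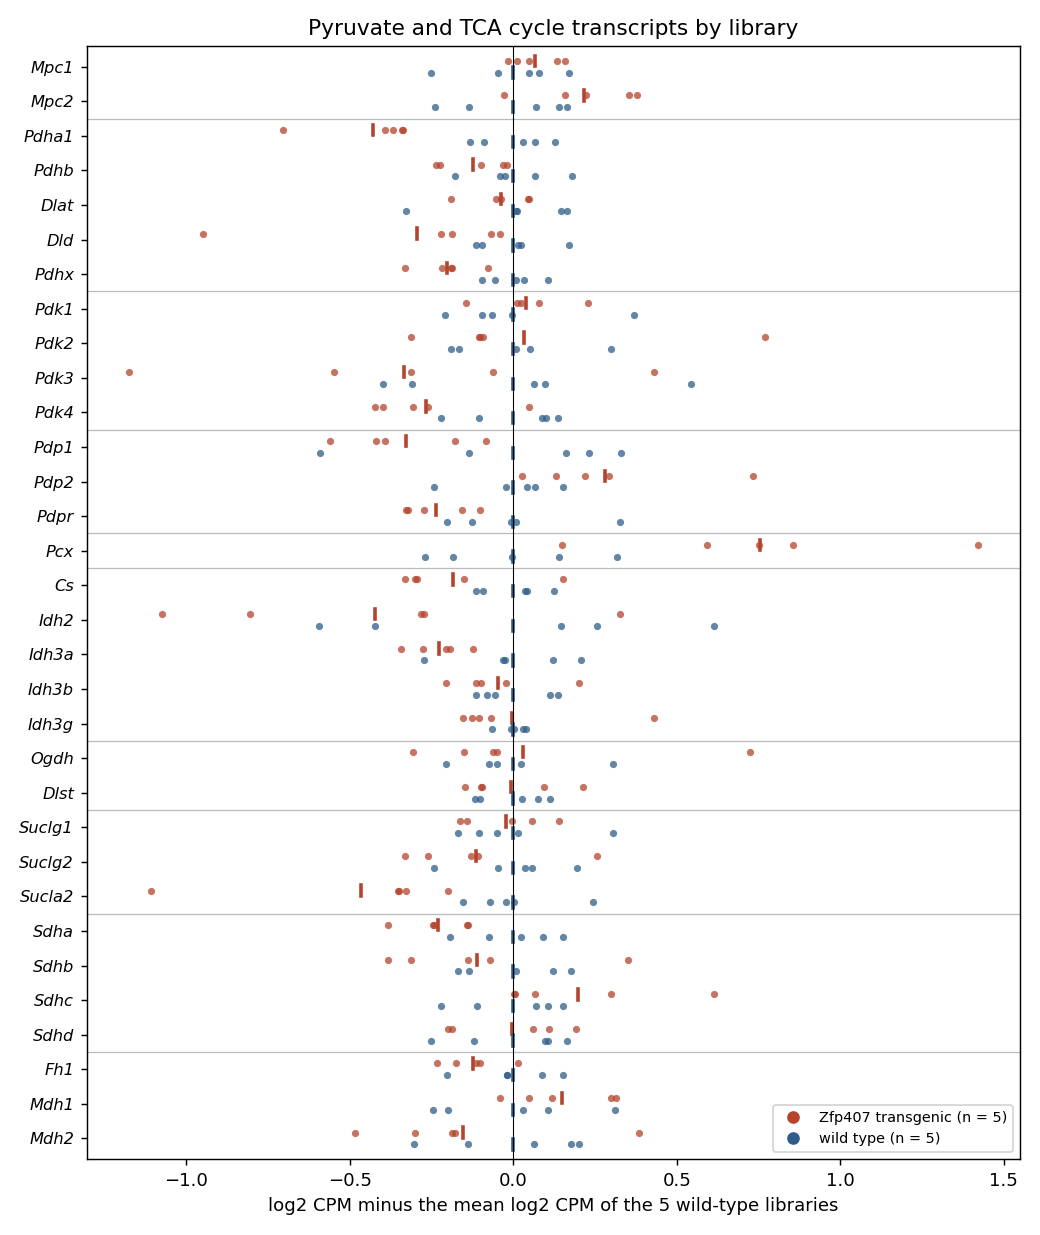
Each point is 1 library, plotted as its log2 CPM minus the mean log2 CPM of the 5 WT libraries, for the 32 genes in order of role, with TG libraries above WT libraries in each row and short bars at the group means. All 5 TG points of Pdha1 and Sucla2 lie left of their WT points, and the rightmost point of all is Pcx in TG 3.

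The upstream sequences of the 2 transcripts that were called are shown because the results turn on them. They come from RefSeq (GRCm38.p6), span 250 bases, run 5′ to 3′ on the strand of the gene and end at the base before the transcript start. Capitals mark matches, on either strand, to CCAAT or to GGGCGG, a GC box. Pdha1 has 1 listed start, with the window chrX:160138431-160138680 on the minus strand. Pcx has 2 listed starts, upstream at chr19:4510222-4510471 and internal at chr19:4594069-4594318, both on the plus strand.
Pdha1: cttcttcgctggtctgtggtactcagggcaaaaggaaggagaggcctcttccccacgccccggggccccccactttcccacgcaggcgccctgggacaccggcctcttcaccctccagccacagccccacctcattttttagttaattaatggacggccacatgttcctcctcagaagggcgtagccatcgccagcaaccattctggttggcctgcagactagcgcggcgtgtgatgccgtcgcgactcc
Pcx, upstream start: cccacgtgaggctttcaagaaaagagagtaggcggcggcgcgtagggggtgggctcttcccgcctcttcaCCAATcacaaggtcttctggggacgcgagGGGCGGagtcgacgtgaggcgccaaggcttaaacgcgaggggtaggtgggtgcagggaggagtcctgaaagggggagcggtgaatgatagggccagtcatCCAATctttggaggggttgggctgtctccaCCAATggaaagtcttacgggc
Pcx, internal start: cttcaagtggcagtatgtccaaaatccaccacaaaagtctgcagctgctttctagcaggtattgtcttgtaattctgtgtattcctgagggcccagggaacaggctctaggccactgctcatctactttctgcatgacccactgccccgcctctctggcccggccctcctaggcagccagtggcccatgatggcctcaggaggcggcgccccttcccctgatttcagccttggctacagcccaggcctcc

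The window of the upstream Pcx start held 3 CCAAT matches and 1 GC box, while those of Pdha1 and of the internal Pcx start held none of the motifs searched. Windows of the same 250 bases were at hand for 29 of the 32 genes, 38 windows in all, and their median GC content was 61.4%, against 52.4% over all 32851 mouse windows. CCAAT occurred in 55.3% of the 38 windows and in 33.8% of all windows, and GGGCGG in 57.9% and 32.7%. AAGGTCA, the half-site bound by estrogen-related receptors, was in 0 of the 38 windows and in 4.08% of all windows. CGCATGCG, a core of the NRF1 motif, was in 5.26% of the 38 windows, both of Ogdh, and in 1.55% of all windows. Both strands were searched, and each motif was counted on its own, also where matches of different motifs could overlap. A match is a run of letters and not a shown binding site.

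The mitochondrial pyruvate carrier, which brings pyruvate into the matrix, did not pass the test in either subunit. Mpc2 had 91.4, 104, 119, 109 and 121 CPM in TG libraries, against 103, 79.0, 97.8, 105 and 85.0 CPM in WT libraries. The groups overlapped, and its log2 fold change was 0.22 ± 0.12 (SE; adjusted p = 0.362 in edgeR). Mpc1 averaged 63.6 ± 3.37 CPM in TG libraries and 60.9 ± 6.55 CPM in WT libraries (SD, n = 5 each).

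In the pyruvate dehydrogenase core, 1 of 5 transcripts fell and none rose. Pdha1 (chromosome X, 160122209 to 160138413, minus strand, GENCODE M21 on GRCm38) carries the sites that the kinases phosphorylate. It had 319.9, 327, 253, 315 and 326 CPM in TG libraries, against 432, 388, 376, 451 and 421 CPM in WT libraries. Every TG library lay below every WT library, and TG 3 was the lowest. The means were 308 ± 31.1 CPM in TG libraries and 414 ± 31.1 CPM in WT libraries (SD, n = 5 each). The log2 fold change was -0.42 ± 0.11 (SE; 95% interval -0.66 to -0.19; edgeR adjusted p = 0.0393), a fold of 0.745. Without TG 3, it was -0.36 ± 0.08 (SE; adjusted p = 0.0169 in edgeR). The call was lost without TG 1, TG 2, TG 4, TG 5, WT 1, WT 4 or WT 5, with log2 fold changes between -0.45 and -0.42 and edgeR adjusted p up to 0.0833. With the hepatocyte markers as a covariate, the log2 fold change was -0.56 ± 0.19 (SE; adjusted p = 0.258 in edgeR). That covariate did not overlap between the groups, so the fit cannot separate it well from genotype.

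Pdha1 shares 603 bases of exon with Map3k15, a kinase gene on the opposite strand. Map3k15 rose, with 9.02 ± 2.27 CPM in TG libraries and 0.898 ± 0.408 CPM in WT libraries (SD, n = 5 each; log2 fold change 3.32 ± 0.27 SE, adjusted p = 1.97e-05 in edgeR). The sources used here do not say whether counting used strand, and reads from the shared bases cannot be told apart, and their part in the fall of Pdha1 was not tested.

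The other subunits of the complex did not pass the test, though all had log2 fold changes below 0. Pdhb, the E1 beta subunit that pairs with E1 alpha, averaged 111 ± 7.89 CPM in TG libraries and 121 ± 11.2 CPM in WT libraries (SD, n = 5 each), and its log2 fold change was -0.12. Dlat, the E2 acetyltransferase, had a log2 fold change of -0.05 with all libraries and -0.07 without TG 3. Dld, the E3 dehydrogenase that the oxoglutarate complex also uses, stood at 92.3 CPM in TG 3 and at 153 to 173 CPM in the other TG libraries, against 165 to 201 CPM in WT libraries. Its log2 fold change was -0.26 with all libraries and -0.13 without TG 3. Pdhx, which anchors E3 to the complex, averaged 55.5 ± 3.43 CPM in TG libraries and 63.7 ± 3.49 CPM in WT libraries (SD, n = 5 each; log2 fold change -0.20 ± 0.09 SE, adjusted p = 0.264 in edgeR).

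Within a library, the ratio of Pdha1 to Pdhb, which does not depend on scaling, was lower. This ratio draws on the same Pdha1 counts and is no separate support for the call of Pdha1. Its log2 value was 1.47 ± 0.19 in TG libraries and 1.77 ± 0.07 in WT libraries (SD, n = 5 each). The difference was -0.31, and an exact two-sided permutation test over all 252 splits gave p = 0.00794, the smallest it can give, or 0.0238 adjusted over 6 ratios. Without TG 3 the difference was -0.23 (exact adjusted p = 0.0238), and without any 1 of the WT libraries the exact test gave an adjusted p of 0.0714. In those settings without a WT library the difference lay between -0.33 and -0.28, and the groups still did not overlap.

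None of the 4 kinases passed the test. Pdk4, the isoform raised by fasting, was by far the most abundant of the 32 per length, with 684 CPM per kb of exon in TG libraries and 822 CPM per kb in WT libraries. It had 2322, 2143, 2179, 2398 and 2968 CPM in TG libraries, against 3082, 3156, 2672, 2463 and 3051 CPM in WT libraries. Of the TG libraries, TG 5 reached into the upper WT range, so the groups overlapped. The log2 fold change was -0.26 ± 0.13 (SE; 95% interval -0.55 to 0.02; edgeR adjusted p = 0.322). Pdk2, a widely expressed kinase, had 213 CPM in TG 3 and 101 to 117 CPM in the other TG libraries, against 109 to 154 CPM in WT libraries. Its log2 fold change was 0.08 with all libraries and -0.16 without TG 3. Pdk1, a kinase raised by hypoxia, had a log2 fold change of 0.03 with all libraries and 0.07 without TG 3. Pdk3 was the least abundant of the 32, with 0.480 CPM per kb in TG libraries and 0.583 CPM per kb in WT libraries, from 10 to 42 counts per library.

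The phosphatases did not pass the test either. Pdp1, the calcium-stimulated catalytic isoform of muscle, had 38.5, 47.6, 37.7, 44.6 and 34.2 CPM in TG libraries, against 56.5, 33.5, 59.3, 63.4 and 45.9 CPM in WT libraries. The lowest value of all was that of WT 2, and the log2 fold change was -0.35 ± 0.16 (SE; adjusted p = 0.280 in edgeR). Pdp2, the other catalytic isoform, had a log2 fold change of 0.29 (edgeR adjusted p = 0.326). Pdpr, the regulatory subunit, averaged 88.2 ± 6.32 CPM in TG libraries and 105 ± 15.4 CPM in WT libraries (SD, n = 5 each; log2 fold change -0.24; edgeR adjusted p = 0.280). The log2 ratio of Pdp1 to Pdk4 was -5.89 ± 0.35 in TG libraries and -5.83 ± 0.50 in WT libraries (SD, n = 5 each; exact permutation p = 0.857).

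**Figure D2:**
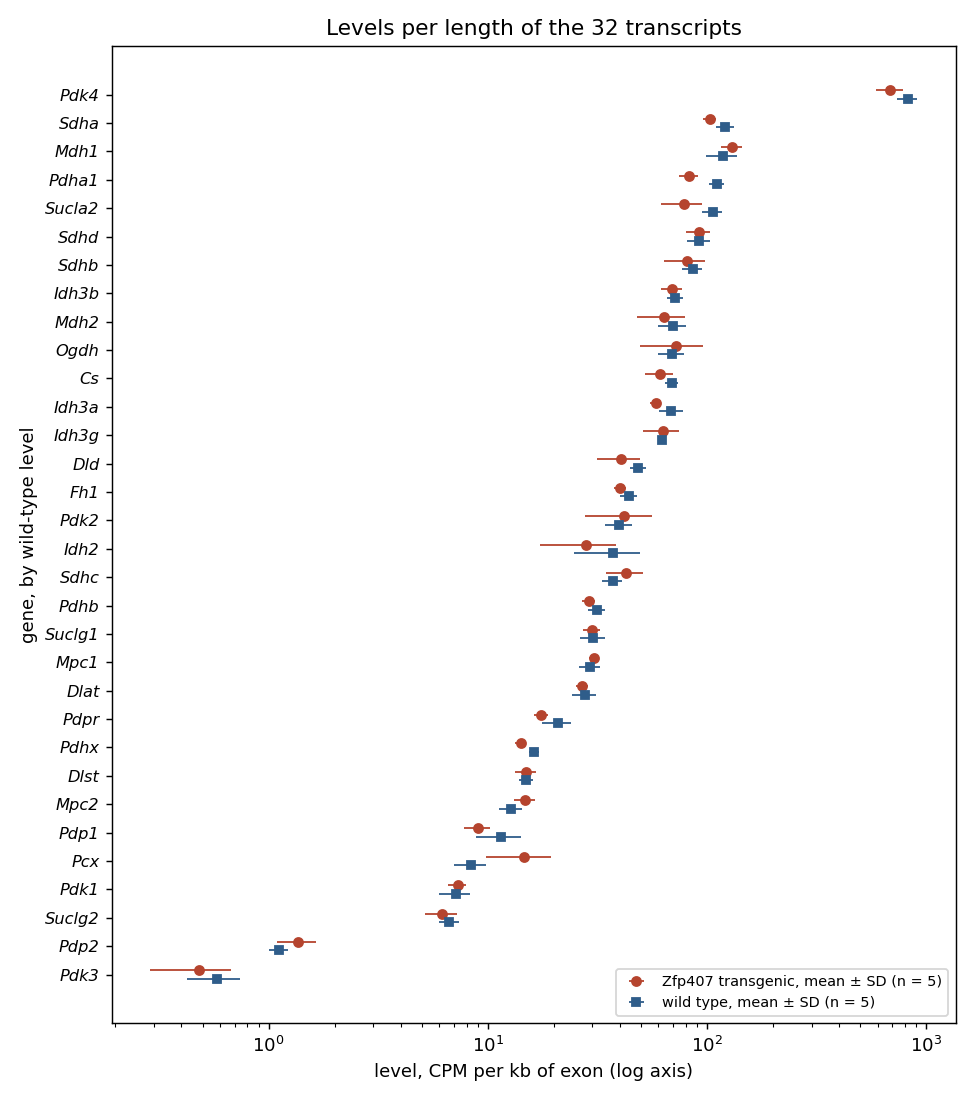
Levels of the 32 transcripts in CPM per kb of exon on a log axis, with points at group means and bars of 1 SD (n = 5 each), TG above WT in each row and genes ordered by WT level. Pdk4 stands far above the rest in both groups, Pdk3 and Pdp2 lie lowest, and Pcx ranks 26 in TG and 28 in WT libraries.

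Pyruvate carboxylase had the largest log2 fold change above 0 of the 32 transcripts. Pcx (chromosome 19, 4510472 to 4621752, plus strand, GENCODE M21 on GRCm38) had 59.5, 43.7, 105, 66.4 and 71.3 CPM in TG libraries, against 43.4, 39.3, 34.7, 32.7 and 49.1 CPM in WT libraries. The groups overlapped, since TG 2 lay below WT 5, and TG 3 was the highest. The means were 69.3 ± 22.8 CPM in TG libraries and 39.8 ± 6.63 CPM in WT libraries (SD, n = 5 each). The log2 fold change was 0.80 ± 0.20 (SE; 95% interval 0.36 to 1.23; edgeR adjusted p = 0.0365), a fold of 1.74. Without TG 3, it was 0.59 ± 0.15 (SE; adjusted p = 0.0381 in edgeR). The call was lost without TG 4, TG 5, WT 1, WT 2, WT 3 or WT 4, with log2 fold changes between 0.71 and 0.81 and edgeR adjusted p up to 0.118.

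Liver expresses pyruvate carboxylase for gluconeogenesis, so the hepatocyte markers are set beside Pcx. Their sum was 620 CPM in TG 1, 1037 in TG 2, 556 in TG 3, 1581 in TG 4 and 6413 in TG 5. In the same order of libraries, Pcx had 59.5, 43.7, 105, 66.4 and 71.3 CPM. The mean log2 CPM of these markers was 3.43 to 6.91 in TG libraries and 1.78 to 2.60 in WT libraries. A fit with this mean as a covariate hence cannot separate it well from genotype. The log2 fold change of Pcx in that fit was 0.83 ± 0.33 (SE; adjusted p = 0.333 in edgeR). Without TG 4 and TG 5, and with no covariate, it was 0.80 ± 0.24 (SE; adjusted p = 0.115 in edgeR). The part of liver RNA in the rise of Pcx was not tested further. Adipocyte markers, from another tissue rich in the enzyme, summed to 200.2 to 1028 CPM in TG libraries and 229 to 1231 CPM in WT libraries, and 0 of 6 tested were called; Lep was too low to be tested.

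The log2 ratio of Pcx to Pdha1, which sets transcripts of the entry routes of pyruvate against each other, was -2.21 ± 0.60 in TG libraries and -3.39 ± 0.25 in WT libraries (SD, n = 5 each). Since Pcx was called higher and Pdha1 lower in these same counts, a separation was likely beforehand. The ratio is no separate support for either call. The difference was 1.18, and no TG library lay as low as any WT library (exact permutation p = 0.00794, adjusted p = 0.0238 over 6 ratios). Without TG 3 it was 0.95 (exact adjusted p = 0.0238), and without any 1 of the WT libraries the adjusted p of the exact test was 0.0714. In those settings without a WT library the difference lay between 1.08 and 1.25, and the groups still did not overlap.

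In the first span of the cycle, none of 5 transcripts passed the test. Cs, citrate synthase, which is often used as a gauge of mitochondrial content, had 324, 322, 442, 316 and 358 CPM in TG libraries, against 409, 367, 373, 407 and 433 CPM in WT libraries. Only TG 3 lay above the WT libraries, and the other TG libraries lay below them all. The log2 fold change was -0.18 ± 0.12 (SE; adjusted p = 0.486 in edgeR) with all libraries and -0.27 ± 0.08 (SE; adjusted p = 0.0652 in edgeR) without TG 3. Idh3a, the catalytic subunit of the NAD-dependent isocitrate dehydrogenase, had 273, 318, 286, 303 and 300.2 CPM in TG libraries, against 339, 287, 341, 400.1 and 377 CPM in WT libraries. Its libraries overlapped through WT 2 (log2 fold change -0.23 ± 0.11 SE, adjusted p = 0.286 in edgeR). Idh3b and Idh3g, the other subunits, had log2 fold changes of -0.04 and 0.01 with all libraries, and of -0.11 each without TG 3. Idh2, the NADP-dependent enzyme of the mitochondrion, varied widely, from 43.5 to 115 CPM in TG libraries and from 60.6 to 140.0 CPM in WT libraries. Its log2 fold change was -0.41 with all libraries and -0.64 without TG 3, and neither passed the test.

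Oxoglutarate dehydrogenase did not pass the test in either transcript. Ogdh, its E1 subunit, had 358, 303, 618, 337 and 361 CPM in TG libraries, against 380.0, 356, 324, 361 and 462 CPM in WT libraries. TG 3 lay above all other libraries, and the log2 fold change was 0.07 with all libraries (edgeR adjusted p = 0.891) and -0.15 without TG 3. Dlst, the E2 subunit, averaged 143 ± 15.6 CPM in TG libraries and 143 ± 10.3 CPM in WT libraries (SD, n = 5 each). Its log2 fold change was -0.004 with all libraries and -0.06 without TG 3.

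Among the succinyl-CoA ligase transcripts, Sucla2, the subunit of the ATP-forming enzyme, had the lowest log2 fold change of the 32. It had 330.1, 366, 196, 335 and 331 CPM in TG libraries, against 401, 379, 422, 499 and 415 CPM in WT libraries. Every TG library lay below every WT library, but TG 3 lay far below the rest. The log2 fold change was -0.44 ± 0.16 (SE; 95% interval -0.78 to -0.10; edgeR adjusted p = 0.146), and without TG 3 it was -0.31 ± 0.09 (SE; adjusted p = 0.0616 in edgeR). When the counts were corrected for GC content, a setting added after the data had been seen, the log2 fold change was -0.42 ± 0.10 (SE; adjusted p = 0.0299 in edgeR). In the authors' deposited table, where 7.29% of genes have an adjusted p under 0.05, those of the set are Pcx, with 0.0090311, Pdha1, with 0.00022987, and Sucla2, with 0.0480546. Suclg2, the subunit of the GTP-forming enzyme, had a log2 fold change of -0.11, and Suclg1, which both enzymes share, had -0.03. Without TG 3, these were -0.06 and -0.07. The log2 ratio of Sucla2 to Suclg2 was 3.42 ± 0.33 in TG libraries and 3.77 ± 0.09 in WT libraries (SD, n = 5 each; exact permutation p = 0.0556, adjusted p = 0.111). The difference was -0.35 with all libraries and -0.25 without TG 3, with an adjusted p of 0.119 by the same exact test. It passed in 1 of 10 settings that left out 1 library, which was without TG 2 (-0.45, exact adjusted p = 0.0159).

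Succinate dehydrogenase, which is also complex II of the respiratory chain, did not pass the test in any of 4 subunits. Sdha, the flavoprotein subunit, had 421, 419, 452, 382 and 451 CPM in TG libraries, against 505, 472, 435, 529 and 553 CPM in WT libraries. WT 3 lay among the TG libraries, and the log2 fold change was -0.23 ± 0.11 (SE; adjusted p = 0.271 in edgeR). Sdhb, the iron-sulfur subunit, had a log2 fold change of -0.09 with all libraries and -0.23 without TG 3. Sdhc, a membrane anchor, had 0.21, with 183 CPM in TG 3 and 120.0 to 147 CPM in the other TG libraries, and 0.09 without TG 3. Sdhd, the other anchor, averaged 113 ± 13.7 CPM in TG libraries and 113 ± 13.4 CPM in WT libraries (SD, n = 5 each). Its log2 fold change was -0.005 with all libraries and -0.06 without TG 3.

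At the end of the cycle, fumarase and the malate dehydrogenases did not pass the test. Fh1, fumarase, had 131, 137, 149.8, 126 and 138 CPM in TG libraries, against 158, 129, 146, 165 and 146 CPM in WT libraries (log2 fold change -0.12 ± 0.10 SE, adjusted p = 0.578 in edgeR). Its groups overlapped. Mdh1, the cytosolic malate dehydrogenase, had a log2 fold change of 0.14. Mdh2, the mitochondrial enzyme of the cycle, had -0.13 with all libraries and -0.30 without TG 3, where it stood at 322 CPM against 176 to 218 CPM in the other TG libraries. The log2 ratio of Mdh1 to Mdh2 was 0.58 ± 0.32 in TG libraries and 0.28 ± 0.25 in WT libraries (SD, n = 5 each; exact permutation p = 0.143, adjusted p = 0.214), and without TG 3 the difference of 0.44 had an adjusted p of 0.0317 by the same exact test.

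**Figure D3:**
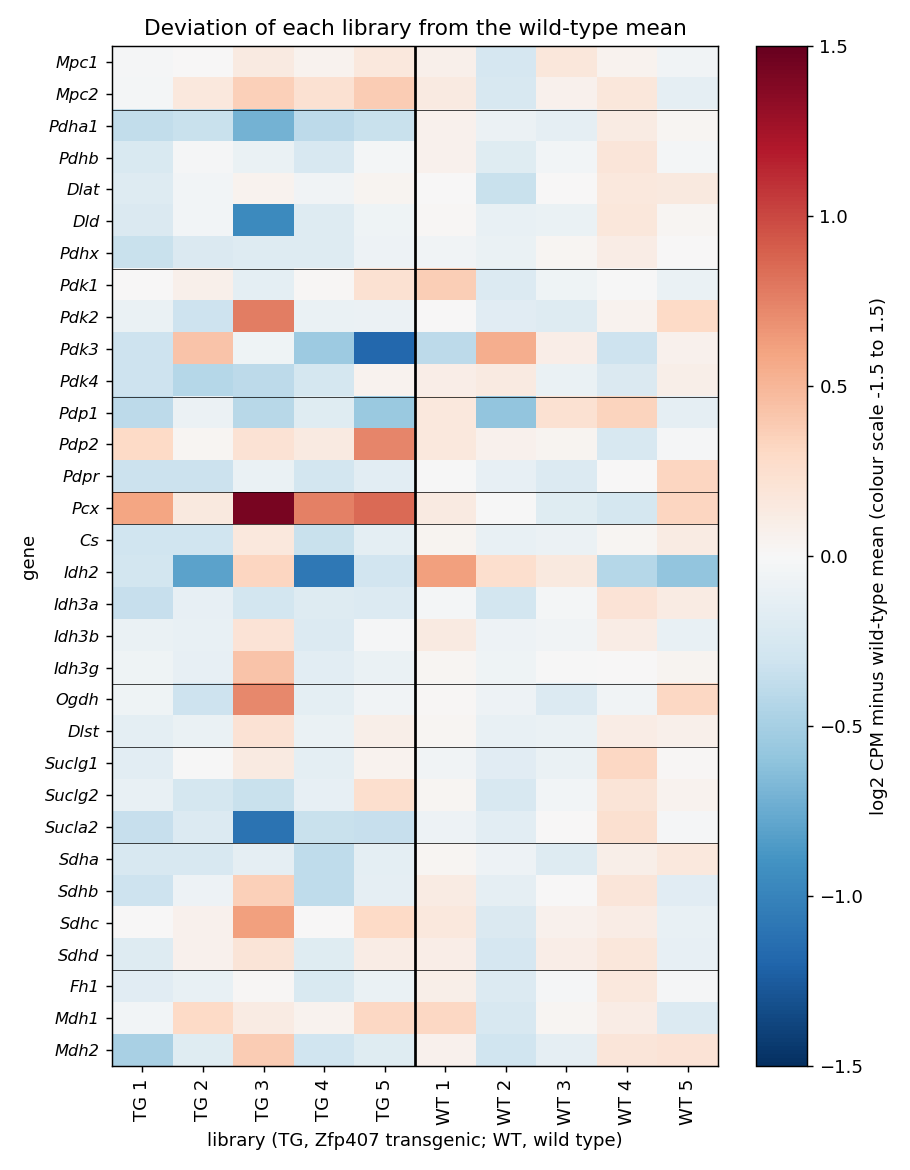
Colour gives log2 CPM minus the mean log2 CPM of the WT libraries for 32 genes (rows, by role) in 10 libraries (columns, TG left of WT). The Pcx row is red in all TG columns and the Pdha1 row blue in all of them, while the TG 3 column holds the darkest cells of Pcx, Dld and Sucla2.

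The spread within groups was carried in part by single libraries. TG 3 was the highest TG library for 17 of the 32 transcripts and the lowest for 5. All 7 transcripts with a GC content of at least 50%, among them Pcx, Ogdh, Pdk2, Idh2 and Mdh2, were higher in TG 3 than in the mean of the other TG libraries, by 0.54 to 0.93 on the log2 scale. Of the 10 with a GC content under 46%, only 3 were higher, and Sucla2 and Dld were lowest, at -0.80 and -0.82. WT 2 was the lowest WT library for 20 transcripts, and WT 4 was the highest for 15. The median coefficient of variation over the 32 was 12.8% in TG libraries, 7.47% in TG libraries without TG 3 and 10.8% in WT libraries. Without TG 3, Pcx was still the only transcript of the set called higher and Pdha1 the only one called lower, while 8.24% of 13540 genes tested were called. The number of log2 fold changes below 0 was then 25, their median over the 32 was -0.14, and 11 had an unadjusted p under 0.05. Over the 13540 genes tested without TG 3, 51.0% of log2 fold changes were below 0, and 22.7% had an unadjusted p under 0.05.

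**Figure D4:**
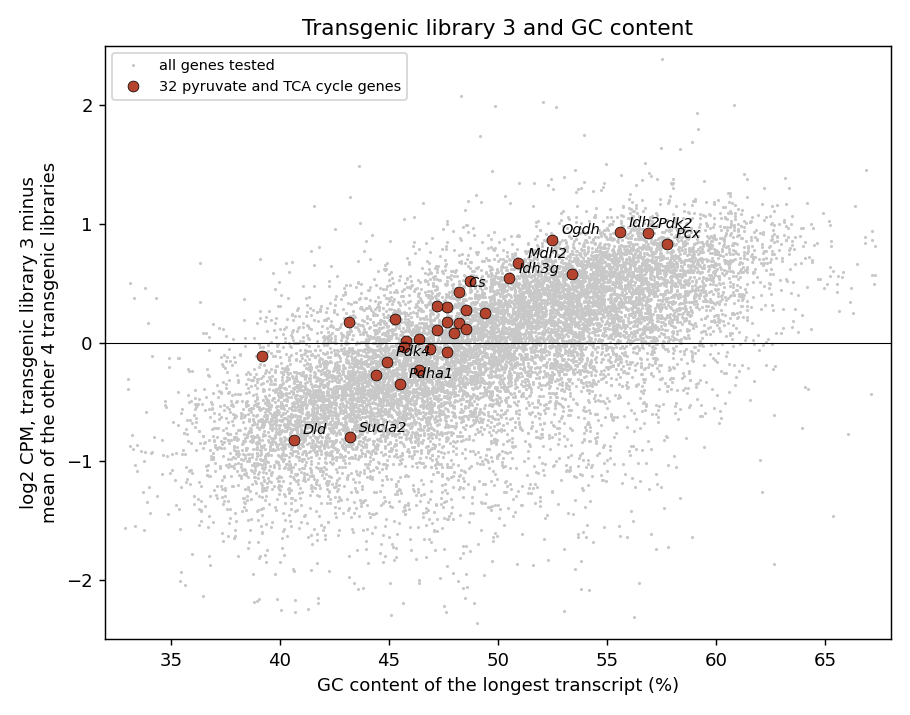
Horizontal, GC content of the longest transcript in percent, and vertical, log2 CPM in TG 3 minus the mean of the other 4 TG libraries, for all genes tested (grey) and the 32 genes (red). Both rise from left to right, with Dld and Sucla2 lowest and Ogdh, Idh2, Pdk2 and Pcx highest of the 32, and 30 genes lie outside the axes drawn.

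Genes around the pathway gave 1 rise and no fall. Of 46 listed, 45 were in the table and 44 were tested, and 2.27% of these were called, with a median log2 fold change of 0.03. Ogdhl was too low to be tested, and Slc19a3 was not analysed here. The gene that rose was Slc19a2, a thiamine transporter of the cell surface, whose substrate becomes the cofactor of the E1 enzymes. It had 9.57, 10.2, 12.8, 10.8 and 15.4 CPM in TG libraries, against 8.27, 7.62, 7.10, 7.22 and 7.65 CPM in WT libraries. The groups did not overlap, and the log2 fold change was 0.63 ± 0.14 (SE; adjusted p = 0.0177 in edgeR). It lost its call without WT 2, WT 3 or WT 4 (edgeR adjusted p from 0.0572 to 0.0726), and was 0.28 ± 0.21 (SE; adjusted p = 0.590 in edgeR) with the hepatocyte markers as a covariate. As for Pdha1 and Pcx, that covariate cannot be separated well from genotype.

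In the other lists around the pathway, no gene passed the test. Me3, a mitochondrial malic enzyme, came closest among the anaplerotic genes (log2 fold change -0.40 ± 0.13 SE, adjusted p = 0.101 in edgeR), and without TG 3 it fell, with -0.54 ± 0.08 (SE; adjusted p = 0.00348 in edgeR). Dbt, the E2 subunit of branched-chain keto acid dehydrogenase, had -0.34 ± 0.15 (SE; adjusted p = 0.253 in edgeR). The genes with the smallest p in the remaining lists were Aco1, the cytosolic aconitase, Sdhaf3, an assembly factor of succinate dehydrogenase, Lipt1, which attaches lipoate, Ldha, a lactate dehydrogenase subunit, and Bdh1, which acts on ketone bodies. Their log2 fold changes lay between -0.10 and 0.71, with edgeR adjusted p of 0.394 or more. The highest was that of Bdh1, which had 24.6 CPM in TG 3 and 3.78 to 13.5 CPM in the other TG libraries, and a log2 fold change of 0.10 without TG 3.

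Markers of mitochondrial content other than enzymes of the cycle overlapped between the groups in sum. Genes of the outer membrane, import and chaperones summed to 1396 to 1657 CPM in TG libraries and 1468 to 1697 CPM in WT libraries. Of 11 tested, 1 was called, Tomm22, an import receptor, which rose (log2 fold change 0.58 ± 0.14 SE, adjusted p = 0.0265 in edgeR). Slow fibre markers summed to 244 to 894 CPM in TG libraries and 128 to 1615 CPM in WT libraries, with 0 of 9 called. Leukocyte markers summed to 81.8 to 244 CPM in TG libraries and 76.2 to 154 CPM in WT libraries, with 0 of 6 called, and Cd3e and Cd79a were too low to be tested. Fast fibre markers summed to 64451 to 86217 CPM in TG libraries and 70502 to 95946 CPM in WT libraries, with 0 of 9 called. Endothelial markers summed to 179 to 249 CPM in TG libraries and 212 to 254 CPM in WT libraries, with 0 of 5 called. The part of these markers in the results was not tested beyond the covariates named.

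The genes whose log2 CPM over the 10 libraries was most like that of Cs were Aldh4a1, with Pearson's r of 0.976, Tmem63b, with 0.955, and Tmem63a, with 0.951. Without TG 3, r was 0.969, 0.942 and 0.937. With the group means removed, those most like Pdha1 were Gm16340, with 0.988, Ola1, with 0.964, and Brms1l, with 0.961, and without TG 3 r was 0.977, 0.892 and 0.881. These values describe libraries that share depth and preparation, and they were picked as the highest of 13338 genes.

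**Figure D5:**
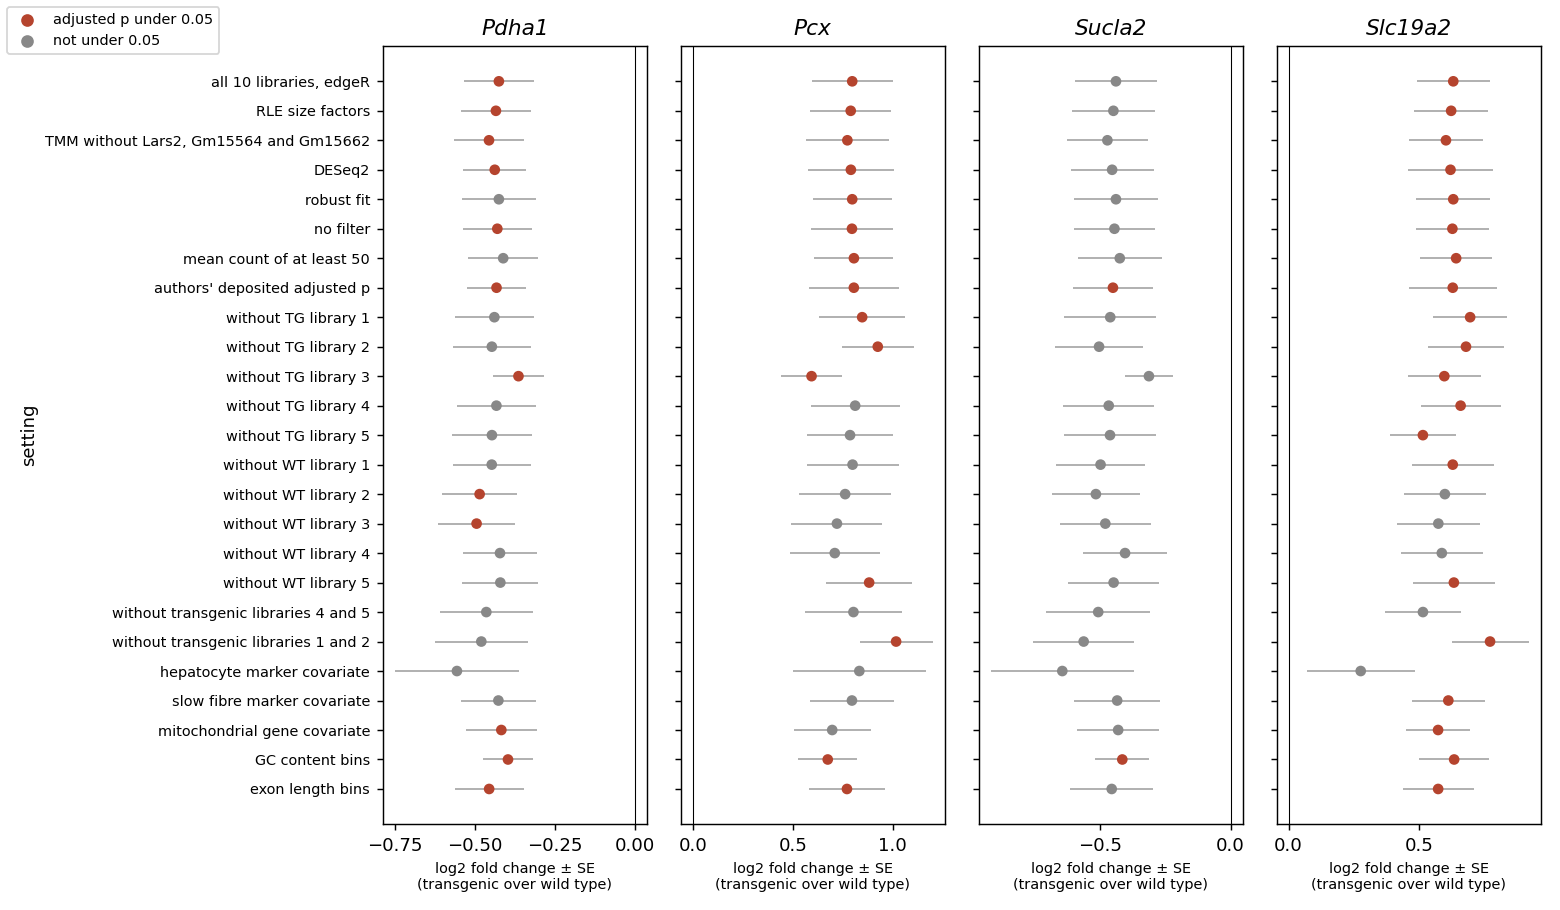
Log2 fold change, TG over WT, with bars of 1 SE, for Pdha1, Pcx, Sucla2 and Slc19a2 under each setting (rows), in red where the adjusted p was under 0.05. Every value of a gene lies on 1 side of 0, and Pcx is lowest at 0.59 without TG 3.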

How the data were processed

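RNA-seq libraries of biceps femoris from 5 TG and 5 WT mice were used. The authors deposited 1 table of whole-number counts per gene and library, not normalized. It also holds the authors' mean signal over libraries, their log2 fold change with its SE, a Wald score and the authors' p-values. The submitters' processing notes name HTSeq 0.6.1, TopHat2 2.1, DESeq2 1.10, SAMtools 1.2 and Bowtie2 2.2.6 and the build GRCm38.p4. For strand, counting settings and gene models the sources used here give nothing, and reads of near-identical or overlapping genes may be split in an unknown way. The table's adjusted p-values were adjusted over the authors' own set of genes. Dates stand in place of 23 gene names.

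After filterByExpr and TMM scaling, edgeR 4.0.16 (estimateDisp, glmQLFit, glmQLFTest) in R 4.3.3 compared TG with WT without a covariate, and p-values of 13338 genes were adjusted by Benjamini-Hochberg, with a threshold of 0.05. SE is the size of the log2 fold change divided by the square root of F, and the prior count of log2 CPM was 2. Ratios used a prior count of 0.5 and exact permutation over 252 splits. Coordinates, lengths and GC content came from GENCODE M21, which matched 99.8% of genes tested. On simulated counts for 13338 genes in this comparison, edgeR recovered 18% of those set to a fold of 1.5, 76% for a fold of 2, 98% for a fold of 4 and 100% for a fold of 8, and made 6 false calls.

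The members and gene lists were chosen with earlier results of these data known. Named are the called members, the member with the smallest p in each role, Pdk4, Cs, called related genes and otherwise 1 of the smallest p per list, and 3 genes most like Cs and Pdha1. Some listed genes are not reported here. The series describes separate mice, and replicates differed by more than sampling noise (lowest chi-square over its degrees of freedom 17.4 among 20 pairs). Alternatives were other size factors, DESeq2 1.42.0, a robust fit, the authors' p-values, other thresholds and filters, libraries left out, marker covariates and, added after seeing the data, correction in 50 bins of GC content or exon length.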

Additional observations from a re-analysis of the deposited data

Results flagged for a closer look

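In 7 of the 32 transcripts, TG 3 lay further from the other TG libraries than Dixon's criterion for 5 values allows. Its level was 253 CPM for Pdha1, 92.3 CPM for Dld and 196 CPM for Sucla2, each below the other TG libraries. It was 213 CPM for Pdk2, 226 CPM for Idh3g, 618 CPM for Ogdh and 322 CPM for Mdh2, each above them. No WT library was so marked for any of the 32. Chance marks about 1 in 20 groups, and over all genes tested 16.0% were so marked among TG libraries and 6.34% among WT libraries. The GC content of these transcripts moved with the direction of the gap. With the correction by GC content, which covered all genes, 1 of the 32 was called higher and 2 lower. The part of GC content was not tested further.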

How the results depend on the processing

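No paired analysis was possible because the labels give each mouse its own number and no pairing. No called value changed sign under any alternative run. Of the 32 members, 29 kept their side of the threshold in every setting, and of 44 related genes 41 did. Pdha1 lost its call in 13 of 24 alternatives, Pcx in 10 and Slc19a2 in 5, and Sucla2 gained one in 2.

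The 711 genes called became 1230 with DESeq2, 1158 with the authors' deposited adjusted p, 71 with the hepatocyte covariate, 1115 at an adjusted p of 0.10 and 252 at 0.01. Members higher became 0 without TG 4 and TG 5, with the hepatocyte, slow fibre or mitochondrial covariate, and at 0.01. Members lower became 0 with the robust fit, a mean count of at least 50, without TG 4 and TG 5, without TG 1 and TG 2, with the hepatocyte or slow fibre covariate, and at 0.01, and 2 with the authors' p or GC bins. Related genes called, 1 in the main test, became 2 with DESeq2, a mean count of at least 50, the authors' p, GC or length bins, without TG 1 and TG 2, and at 0.10, 3 with the mitochondrial covariate, and 0 without TG 4 and TG 5, with the hepatocyte covariate, and at 0.01. Without TG 4 and TG 5, the ratio differences were -0.36 for Pdha1 to Pdhb and 1.19 for Pcx to Pdha1 (exact permutation, adjusted p = 0.0536 each), and without TG 1 and TG 2 that of Sucla2 to Suclg2 was -0.53 (adjusted p = 0.0357, exact permutation). Apart from fewer samples or genes, the cause was not tested.

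Leaving out 1 library at a time gave 450 (without WT 3) to 1116 (without TG 3) called genes, 0 to 1 members higher, 0 to 1 lower, 0 to 3 related genes and a median log2 fold change of members from -0.16 to -0.05. Ratio differences ran from -0.35 to -0.23 for Pdha1 to Pdhb, 0.95 to 1.36 for Pcx to Pdha1, -0.45 to -0.25 for Sucla2 to Suclg2, 0.20 to 0.44 for Mdh1 to Mdh2, -0.41 to -0.08 for Pdk4 to Pdk2 and -0.24 to 0.08 for Pdp1 to Pdk4. Depth limits Pdk3 most.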
